A study of Mus musculus with 16 samples.

Results

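A group of 10 genes that respond to glucocorticoid hormone was followed in chromatin accessibility maps of 8 tissues from fed and fasting mice. The members were listed by name: Fkbp5, Tsc22d3, Zbtb16, Sgk1, Dusp1, Nr3c1, Ddit4, Klf9, Mt1 and Mt2, 10 of 21938 protein-coding genes. The assay was ATAC-seq, which reads open DNA from the places where a transposase, Tn5, can cut and tag it. All mice were male C57BL/6, about 12 weeks old at purchase and kept on NIH-31 chow, and were either fed or fasting for 24 h before dissection. Heart, lung, liver, spleen, kidney, muscle and both brown and white adipose were taken from the same animals, and 3 mice of a state were pooled per tissue. Each of the 16 groups, 8 fed and 8 fasting, is therefore 1 library, and p-values below use the 8 tissues as the only repeats of the feeding contrast. Since all tissues of a state share their 3 mice, feeding state and the individual animals cannot be told apart.

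In the fasted state the adrenal cortex releases more glucocorticoid, which binds the glucocorticoid receptor inside the cell. The hormone-bound receptor enters the nucleus and binds response elements in DNA, often in introns and distal enhancers rather than at promoters. Nr3c1 encodes that receptor. Fkbp5 encodes the chaperone partner FKBP51, which lowers the receptor's affinity for hormone. Tsc22d3 encodes the anti-inflammatory protein GILZ, and Dusp1 a phosphatase of MAP kinases. Sgk1 encodes a kinase that acts on ion transport and forkhead factors, and Ddit4 the mTORC1 inhibitor REDD1. Zbtb16 encodes the zinc finger repressor PLZF, and Klf9 a Krüppel-like factor. Mt1 and Mt2, neighbours on chromosome 8, encode metallothioneins, which bind zinc and other metals and also respond to metal through the factor MTF1.

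The regions that carry the sequence part of the account are printed here, on GRCm38.p6, plus strand except where stated, with motif matches in capitals. A glucocorticoid response element was searched as GNACANNNTGTNC on both strands. Each RefSeq promoter entry of the genes runs from 250 bases before to 50 bases after a start. The element was present in a single one of several Sgk1 entries and in the Mt1 entry. Zbtb16 and Nr3c1 had no entry and were not searched at their promoters. The Sgk1 entry that holds it is chr10:21993640-21993939 and the Mt1 entry is chr8:94178839-94179138. The other Sgk1 entries lack it, among them chr10:21994416-21994715, where the peak behind the Sgk1 promoter values below has its summit. In the Mt1 entry the capitals also mark metal response elements (TGCACNC or TGCGCNC, both strands), and in the Mt2 entry, chr8:94172368-94172667, they mark metal response elements alone.
Sgk1 promoter: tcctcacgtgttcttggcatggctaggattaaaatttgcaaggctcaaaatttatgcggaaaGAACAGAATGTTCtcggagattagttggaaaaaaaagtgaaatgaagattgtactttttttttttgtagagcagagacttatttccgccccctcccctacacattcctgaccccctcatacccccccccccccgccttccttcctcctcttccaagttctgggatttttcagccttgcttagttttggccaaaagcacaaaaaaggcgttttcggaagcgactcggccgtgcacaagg
Mt1 promoter: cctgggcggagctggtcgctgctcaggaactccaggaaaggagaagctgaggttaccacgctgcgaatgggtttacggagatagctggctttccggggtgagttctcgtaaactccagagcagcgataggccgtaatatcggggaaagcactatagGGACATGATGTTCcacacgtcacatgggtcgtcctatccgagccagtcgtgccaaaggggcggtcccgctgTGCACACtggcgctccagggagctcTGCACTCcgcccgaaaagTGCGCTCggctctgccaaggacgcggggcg
Mt2 promoter: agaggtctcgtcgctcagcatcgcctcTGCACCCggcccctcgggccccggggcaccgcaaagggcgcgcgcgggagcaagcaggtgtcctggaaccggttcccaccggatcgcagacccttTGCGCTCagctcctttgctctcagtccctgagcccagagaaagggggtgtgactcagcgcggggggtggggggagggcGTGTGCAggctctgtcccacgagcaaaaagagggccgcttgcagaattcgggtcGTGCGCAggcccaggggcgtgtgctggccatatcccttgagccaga

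The same element was searched in windows of 100 bp either side of the summits of intronic and distal regions. It was present in 3 of 681 windows, namely 2 in Zbtb16 introns, chr9:48775661-48775861 and chr9:48736428-48736628, and 1 in a Dusp1 intron, chr17:26531912-26532112. The Dusp1 window lies at -23493 bp from the nearest Dusp1 start, inside the gene only as annotated from a farther start. The element is in capitals.
Zbtb16 intron, first window: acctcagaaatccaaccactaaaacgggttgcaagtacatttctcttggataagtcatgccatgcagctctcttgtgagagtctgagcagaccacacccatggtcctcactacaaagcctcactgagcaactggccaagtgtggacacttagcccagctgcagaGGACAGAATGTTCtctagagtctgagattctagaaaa
Zbtb16 intron, second window: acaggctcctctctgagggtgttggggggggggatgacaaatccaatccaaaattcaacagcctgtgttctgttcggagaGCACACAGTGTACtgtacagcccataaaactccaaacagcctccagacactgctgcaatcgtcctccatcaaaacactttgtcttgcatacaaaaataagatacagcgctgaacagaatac
Dusp1 intron: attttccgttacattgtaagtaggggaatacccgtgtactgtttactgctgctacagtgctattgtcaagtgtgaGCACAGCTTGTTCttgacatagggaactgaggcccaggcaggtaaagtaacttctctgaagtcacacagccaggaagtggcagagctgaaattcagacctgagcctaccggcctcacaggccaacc

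Another 3 windows, which hold no such element, are shown because their peaks were stronger in fasting in all 8 tissues or were listed in fasting libraries alone. They lie in a Zbtb16 intron (chr9:48657850-48658050), in a Fkbp5 intron (chr17:28453103-28453303) and downstream of Tsc22d3 (chrX:140529445-140529645). Capitals in the Fkbp5 window mark the single repeat TGTTCT and a metal response element.
Zbtb16 intron, fasting libraries alone: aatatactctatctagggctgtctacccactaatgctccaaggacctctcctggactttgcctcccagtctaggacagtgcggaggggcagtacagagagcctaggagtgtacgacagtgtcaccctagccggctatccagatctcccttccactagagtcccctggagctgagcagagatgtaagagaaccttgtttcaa
Fkbp5 intron, stronger in 8 tissues: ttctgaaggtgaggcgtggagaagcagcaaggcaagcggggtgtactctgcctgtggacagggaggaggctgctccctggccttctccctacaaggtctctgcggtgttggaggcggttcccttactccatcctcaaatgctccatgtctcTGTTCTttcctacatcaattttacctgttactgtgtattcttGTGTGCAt
Tsc22d3 downstream, stronger in 8 tissues: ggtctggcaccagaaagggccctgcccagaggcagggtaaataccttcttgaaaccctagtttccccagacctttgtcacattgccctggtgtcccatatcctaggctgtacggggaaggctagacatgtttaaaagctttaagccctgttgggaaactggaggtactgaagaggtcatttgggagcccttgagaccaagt

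Motif shares in the genes' regions were near those of all regions. The response element was in 0.441% of the 681 windows and in 0.74% of all 580667 windows over 3 kb from any start, and the single repeat TGTTCT was in 18.9% and 18.8%. Metal response elements were in 15.9% of the genes' windows and 14% of all. The cyclic AMP response element TGACGTCA was in 0.147% and 0.17%, and the forkhead site TGTTTAC in 2.64% and 3.02%. Among 32817 RefSeq promoter entries, 0.475% held the response element, 25.7% held at least 1 metal response element and 1.97% held 3 or more, against 3 in the Mt1 entry and 4 in the Mt2 entry. These matches describe letters and show no binding.

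Strength was read as a percentile among the distinct intervals of each library's list, 149835 to 239804 per library, ordered by the peak caller's −log10 p. There 100 is the strongest and 0 means no listed peak. Lists held 298996 to 299529 rows, and an interval with several rows kept its strongest. A peak was in a library's set when its q was under 0.01. Sets held 131688 to 225899 peaks. The genome-wide background, a stand-in for depth, ran from 2.80 tags per summit position in fed liver to 12.77 in fed brown adipose. It differed over 1.5 times between states in muscle (6.39 fed, 10.56 fasting), brown adipose (12.77 and 6.76) and white adipose (10.02 and 5.87). Promoter markers of each tissue were highest in the tissue named on the label for 7 of 8 lists. The white adipose list stood at 92.7 in brown and 90.3 in white adipose, and the muscle list at 73.9 in white adipose, its second highest tissue. Macrophage markers were 36.8 percentile points higher in fasting than in fed heart, while heart markers went from 80.2 to 64.3. Marker lists moved in other tissues too, in both directions. Fasting minus fed, spleen markers shifted by -24.3 points in lung, kidney markers by -24.2 in white adipose and lung markers by 15.4 in brown adipose. The part of these shifts in the results was not tested, and in whole tissue a change in the share of a cell type and a change within cells cannot be told apart.

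All 10 genes had a promoter peak, with a summit within 3 kb of one of their annotated starts, in the sets of all 16 libraries. Of 19718 coding genes with any listed promoter peak, 66.4% did so. The receptor gene Nr3c1 (chr18:39410545-39519421) ranged from 94.3 in fed brown adipose to 99.0 in fasting heart, with a median of 97.9 over 16 libraries. Its neighbours in strength were Fkbp5 (chr17:28399094-28517527), from 95.9 to 99.5 with a median of 98.2, and Sgk1 (chr10:21882184-21999903), from 97.4 to 99.7 with a median of 99.2. These 3 promoters stayed near the top of every list, in both states.

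Ddit4 (chr10:59949669-59951834) ran from 91.9 to 98.6 with a median of 97.5, and Dusp1 (chr17:26505590-26562128) from 93.5 to 98.3 with a median of 95.5. In 10 of 16 libraries the Dusp1 value came from a start region that overlaps the start of the coding gene Ergic1, and the peak at the other Dusp1 start region, chr17:26507842-26509018, ran from 91.6 to 96.2. Tsc22d3 (chrX:140539528-140600659) ran from 88.3 to 97.3 with a median of 93.5, and Klf9 (chr19:23141226-23168134) from 79.8 in fed kidney to 95.6 in fed white adipose with a median of 93.3. Zbtb16 (chr9:48654297-48836222) lay between 94.8 and 99.5 in 7 tissues and at 81.5 fed and 84.4 fasting in spleen. Spleen was thus the 1 tissue in which the Zbtb16 promoter left the top of the list, in both states.

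Mt2 had the widest range of tissue means among the 10, 26.2 points, followed by Zbtb16 at 16.1 and then Mt1. Mt2 (chr8:94172664-94173568) stood at 57.0 in fed and 77.7 in fasting spleen, at 73.4 and 82.0 in lung, at 74.8 and 79.4 in kidney, and between 84.6 and 94.9 in the other 10 libraries. Mt1 (chr8:94179082-94180327) stood at 87.4 in fed and 76.2 in fasting spleen and between 87.1 and 97.1 elsewhere. The values in spleen rest on few tags, 16 fed and 21 fasting at the Mt2 summit and 48 and 30 at the Mt1 summit.

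**Figure D1:**
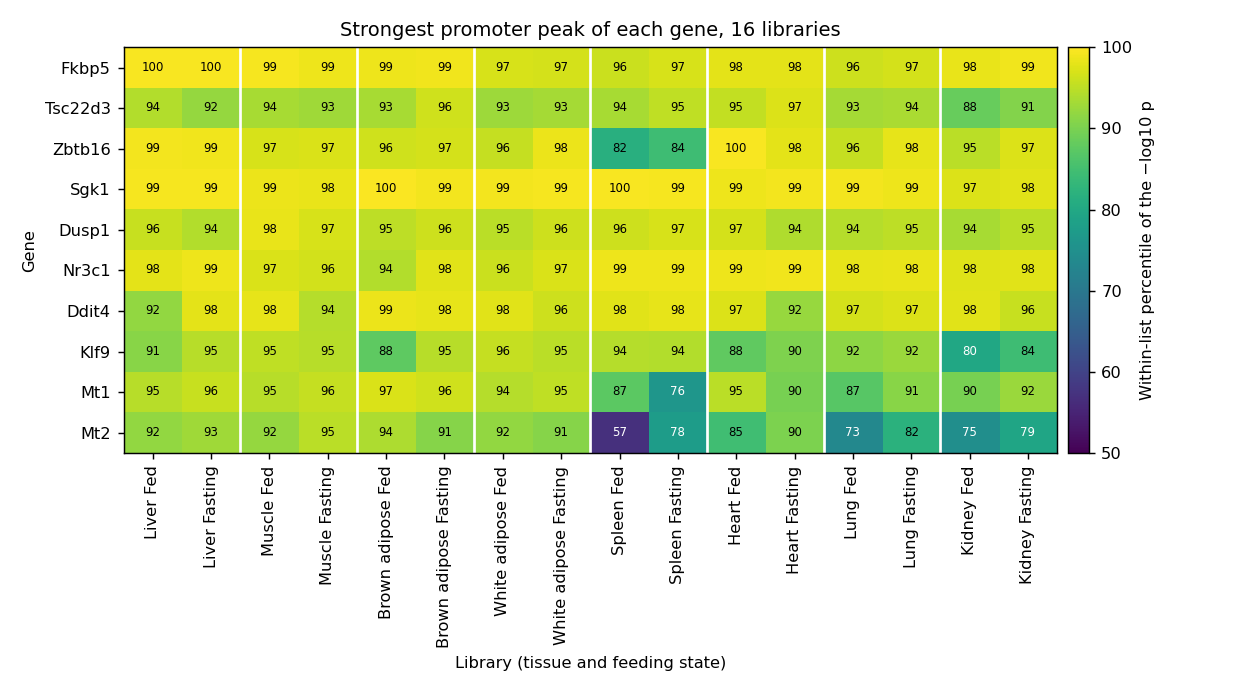
Within-list percentile of the strongest promoter peak (colour and number) for the 10 genes (rows) in the 16 libraries (columns, fed beside fasting for each tissue). Sgk1 stays at 97.4 or above throughout, whereas Mt2 and Zbtb16 are lowest in spleen.

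Promoter strength differed between tissues for 6 of the 10 genes. The test asked whether the fed and fasting libraries of a tissue were nearer to each other than libraries of different tissues, over every pairing of fed with fasting libraries, one-sided, with Benjamini-Hochberg adjustment over all genes. It called 46.4% of all genes, and 50.5% of the 11448 genes whose mean percentile was at least that of the lowest of the 10, so 6 of 10 was close to the background. The exact permutation test gave an adjusted p of 0.0129 for Fkbp5 (highest in liver, mean 99.5, lowest in spleen, 96.4) and 0.0234 for Mt2 (muscle 93.5, spleen 67.3). Both genes were read at different peaks in different tissues. For peaks that overlap a start, Fkbp5 was highest in muscle (99.1) and lowest in kidney (96.4), and Mt2 highest in brown adipose (92.4) with muscle at 78.2 fed and 79.2 fasting, at adjusted exact permutation p-values of 0.0165 and 0.0136. Adjusted values by the strongest peak were 0.0264 for Sgk1 (brown adipose 99.5, kidney 97.6), 0.0295 for Klf9 (white adipose 95.2, kidney 82.2), 0.0413 for Zbtb16 (liver 99.0, spleen 83.0) and 0.0428 for Nr3c1 (heart 98.9, brown adipose 96.0). Tsc22d3, Mt1, Dusp1 and Ddit4 did not pass, with adjusted exact permutation p-values of 0.0821, 0.0538, 0.354 and 0.834.

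Peak percentile at the promoters did not separate fasting from fed. In an exact two-sided sign-flip permutation test over 8 tissues, the smallest possible p is 0.00781. After adjustment, 0 of the 10 genes and 0% of 19718 genes had a p under 0.05. The adjustment cannot bring the smallest p under 0.05 unless many genes reach it, so this outcome does not show that promoters were unchanged. At an unadjusted p under 0.05 there were 0 of 10 and 925 of all genes, and limma called 0 genes after adjustment. Ranked by fold in place of −log10 p, Fkbp5 was lower in fasting (-2.81 points, exact sign-flip permutation p = 0.00781, adjusted 0.959), opposite to its shift of 0.17 here. None of the 10 was higher in at least 7 of 8 tissues and none was lower in as many, where 3.24% and 2.88% of all genes were. Mean shifts, fasting minus fed over 8 tissues, ran from -0.91 ± 4.96 points (SD) for Mt1 to 4.98 ± 7.30 for Mt2, and each was within 1 SD of 0. Of 80 gene and tissue pairs, 1 rose by at least 10 points (Mt2 in spleen, 20.7) and 1 fell by as much (Mt1 in spleen, -11.2), against 7.57% and 8.41% of all pairs. A promoter near the top of its list has no room to rise by 10 points, and most of these promoters stood there in most tissues. Sgk1, for example, was at 97.4 or above in every library. The count of rises therefore cannot show that these promoters were unchanged. The shares of all pairs were not matched for strength.

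The percentile measures a summit against the tags expected around it, and that expectation itself differed between states. The expected tags, here called local background, are the peak caller's estimate from sequence near the summit and can include tags of the peak itself. They were recovered from the deposited values at 1 fixed region per gene (the one with its strongest promoter summit in most libraries), divided by the genome-wide background, and centred on the median of all genes of a tissue. This measure was added after the values had been seen. Local background was higher in fasting in at least 7 of 8 tissues for 7 of the 10 genes and lower in as many for 0, where 4.8% and 4.82% of 12770 genes were. It was higher in all 8 tissues for 4 of the 10 (Fkbp5, Tsc22d3, Zbtb16 and Ddit4), where 0.846% of genes were. Mt1 and Mt2, both among the 7, share a locus and may not be independent.

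At the fixed regions Ddit4 had the largest mean change among the 10, 0.71 ± 0.52 on the log2 scale (SD over 8 tissues), and 1 of 12770 genes had a larger one. As multiples of the genome-wide background it went from 6.8 fed to 20.4 fasting in muscle, from 6.9 to 9.3 in brown adipose, from 6.3 to 10.2 in white adipose and from 4.3 to 6.4 in heart. Liver went from 2.8 to 5.1, lung from 6.9 to 10.3, spleen from 5.6 to 6.7 and kidney from 9.5 to 10.8. Fasting was higher in each of the 8 tissues, most of all in muscle. There the Ddit4 promoter percentile went the other way, from 98.1 to 94.4, although its summit tags over the genome-wide background were 71.9 fed and 86.6 fasting.

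Zbtb16 followed with 0.61 ± 0.26, and 4 genes had a larger mean. Its local background went from 2.8 to 7.1 in liver, 9.1 to 12.4 in muscle, 5.5 to 9.3 in lung and 3.7 to 6.2 in kidney, and stood at 1.4 in both states in spleen. Spleen, where the Zbtb16 promoter was weakest, also had the smallest change, 0.03 after centring.

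Fkbp5 changed by 0.52 ± 0.30, and 10 genes had a larger mean. When the strongest peak of each library was used instead, its change was 0.90 ± 0.49, above all other genes, and that of Ddit4 was 0.71 with 6 genes above it. In spleen and lung, however, the strongest Fkbp5 peak lay at different start regions in fed and fasting. These tissues gave the largest changes, 1.49 and 1.63, against 0.22 and 0.38 at the fixed region. The rank by strongest peak thus rests in part on comparing different start regions. At the main Fkbp5 start region, chr17:28484874-28486769, local background went from 1.1 to 3.4 in liver, 4.4 to 6.5 in muscle, 1.8 to 2.5 in heart and 5.1 to 6.8 in kidney. In white adipose it was 4.6 fed and 3.9 fasting, which is still 0.12 above that tissue's median gene. Fkbp5 has a pair of further start regions, chr17:28512360-28513344 and chr17:28517882-28518592, and both moved more: local background by 0.96 ± 0.42 and 0.85 ± 0.39, and summit tags by 0.67 ± 0.47 and 0.65 ± 0.32, each up in 8 of 8 tissues. Summit tags at the main start region changed by 0.17 ± 0.23, up in 6 of 8. The difference between these start regions was not tested.

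Mt1 (0.46 ± 0.35, up in 7 of 8), Tsc22d3 (0.34 ± 0.28, up in 8) and Mt2 (0.32 ± 0.37, up in 7) came next, with Sgk1 at 0.16 ± 0.14 (up in 7). Spleen was the exception for both metallothioneins. Klf9 at 0.12 ± 0.18 (up in 6) did not reach the count, nor did Nr3c1 at -0.04 ± 0.17 (up in 3) or Dusp1 at -0.02 ± 0.24 (up in 4). The region used for Dusp1 overlaps the start of Ergic1, and at the other Dusp1 start region, chr17:26507842-26509018, the change was 0.01 ± 0.27. For the 4 genes up in all 8 tissues the exact sign-flip p was the smallest possible, 0.00781, with an adjusted p of 0.557. No gene of the 12770 had an adjusted p under 0.05, which the adjustment again could not give unless many genes reached the smallest p. Unadjusted, 937 had a p under 0.05, 6 of the 10 among them. Without centring, 5 of the 10 were higher in at least 7 tissues. No share over all genes was taken without centring, so that count has no background beside it. Centring shifts were as large as -0.76 (brown adipose) and 0.59 (liver), and the part of depth in these values was not tested.

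Summit tags at the same fixed regions moved less. They were higher in at least 7 of 8 tissues for 2 of the 10, Zbtb16 (0.38 ± 0.29) and Mt2 (0.30 ± 0.37), and lower in as many for 0, where 4.68% and 4.71% of genes were. None of the 10 was higher in all 8 tissues, as 0.697% of genes were, and without centring the count of 2 became 0.

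**Figure D2:**
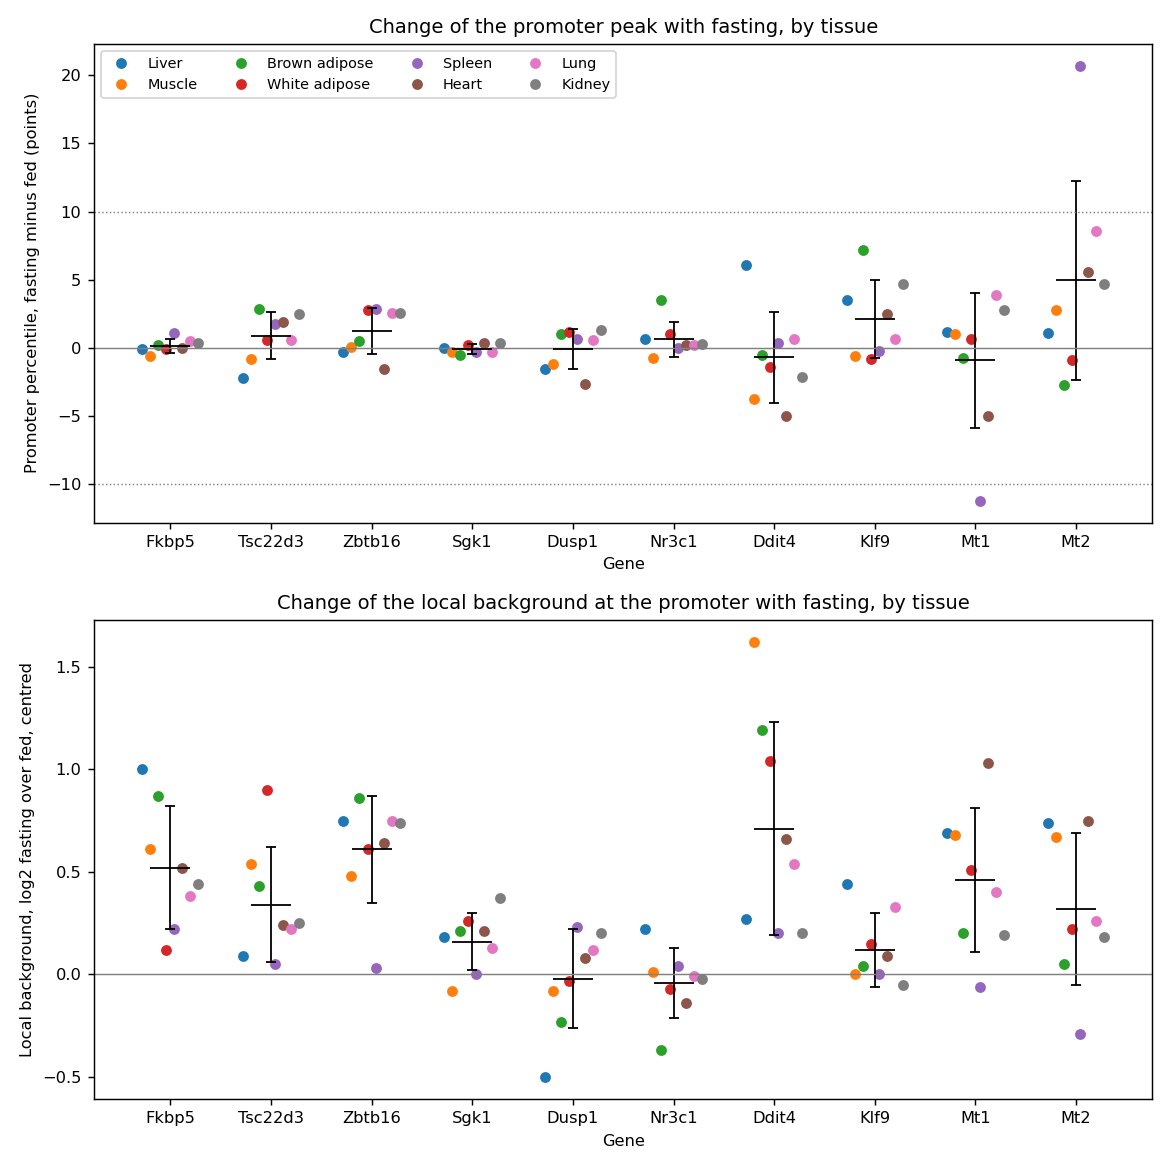
Fasting minus fed change by tissue (coloured points) with the mean and SD over 8 tissues (black bars) for each gene: promoter percentile in points above, with dotted lines at 10 points either way, and centred log2 local background below. Percentiles scatter about 0, whereas local background lies above 0 in all 8 tissues for Fkbp5, Tsc22d3, Zbtb16 and Ddit4.

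Related genes were read the same way from lists fixed by name, which were chosen with earlier results of these data known. Of 25 other glucocorticoid targets, 17 had the fixed region listed in all 16 libraries, and local background was higher in at least 7 of 8 tissues for 8 of those 17 and lower for 0, against the 4.8% and 4.82% of all genes. The 4 of largest change were Pdk4, the kinase that restrains pyruvate dehydrogenase (0.69 ± 0.51), Angptl4, an inhibitor of lipoprotein lipase (0.54 ± 0.51), the transcription factor gene Cebpd (0.39 ± 0.37) and Cdkn1a, the cell cycle inhibitor p21 (0.36 ± 0.24). Angptl4 was higher in 6 of 8 tissues and the other 3 in 7. Of 14 genes of the receptor machinery (chaperones, cofactors and the enzymes that activate or inactivate the hormone), 1 did so, H6pd at 0.14 ± 0.15, and 0 were lower, against the same shares. List medians were 0.22 for other targets, -0.02 for the receptor machinery and 0.33 for the 10 genes.

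By promoter percentile the same lists showed little. None of the receptor machinery genes and none of the other targets was higher in at least 7 of 8 tissues, while 2 of the former (Hsp90aa1 and Ncoa2) and 1 of the latter (Foxo1) were lower, against 3.24% higher and 2.88% lower among all genes. The largest mean shifts were 2.68 points for Hsd11b1, which regenerates active hormone, and 12.80 for Lcn2, an iron-carrier protein gene, with G6pc, the last enzyme of glucose release, at -7.88.

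Intronic and distal regions were then taken apart from promoters. Within the genes extended by 20 kb, 857 merged regions had their summit: 107 at a gene's own start, 69 at the start of another gene, and 681 over 3 kb from any start. Of the 681, 490 were intronic, 23 exonic, 56 upstream and 112 downstream. Zbtb16 held 240, Nr3c1 120, Sgk1 80, Fkbp5 79, Dusp1 45, Tsc22d3 45, Klf9 36, Ddit4 19 and the shared metallothionein locus 17. Sets of all 16 libraries contained 3.23% of the 681 and 1.43% of all regions over 3 kb from any start. Sets of at least 2 libraries contained 453, which enter the tests.

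By −log10 p, intronic and distal regions more often had a higher mean in fasting. Mean percentile was higher in fasting for 306 of the 453 (67.5%) and for 50.9% of 276153 regions over 3 kb from any start, with median shifts of 2.85 and 0.09 points. In at least 7 of 8 tissues, 17 of the 453 (3.75%) were higher and 0 lower, against 0.55% and 0.395% of all such regions. Ranked by fold, 6 were higher and 2 lower (0.479% and 0.42% of all), and after thinning to equal depth 5 were higher (0.151% of all, with 0.971% lower). No region passed the sign-flip test after adjustment, 0% of all such regions, and none could unless many reached its smallest p. Unadjusted, 25 of the 453 and 3456 of all regions had a p under 0.05. Regions of 1 locus lie close together in the same libraries, so they are not independent. A region can be higher in at least 7 tissues only if it is listed in as many. The genes' regions were listed more widely, 66.5% in at least 2 sets against 47.6% of all over 3 kb from any start. The shares of all regions were not matched for this.

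Zbtb16 held 9 of the 17, and 123 of its 161 tested regions had a higher mean in fasting, with a median shift of 4.86 points. Fkbp5 held 2, with 40 of 53 higher and a median of 3.85, and Tsc22d3 held 2, with 22 of 35 higher and a median of 0.70. Ddit4, Dusp1, Klf9 and Nr3c1 held 1 each, with medians of 8.26, 3.56, 3.82 and 0.87. Sgk1 held 0 and was the 1 locus with more regions lower than higher (28 and 20, median -0.80), and the metallothionein locus held 0. Without Zbtb16 and Fkbp5, 6 of 239 regions were higher in at least 7 tissues, against 0.55% of all tested regions over 3 kb from any start.

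**Figure D3:**
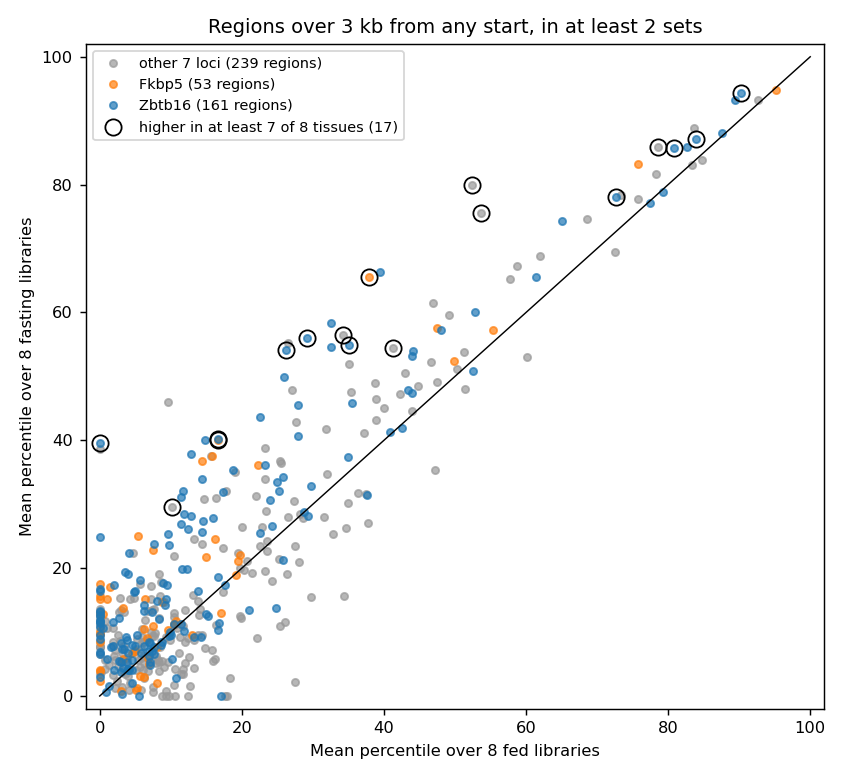
Mean within-list percentile over 8 fed libraries (x) and 8 fasting libraries (y) of the 453 intronic and distal regions in at least 2 sets, coloured by locus, with the line of equality. The 17 circled regions, higher in fasting in at least 7 of 8 tissues, lie above the line, and 306 of 453 regions do.

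Among them, 5 regions were higher in all 8 tissues, each at the smallest exact sign-flip p of 0.00781 with an adjusted p of 1. Downstream of Tsc22d3, chrX:140528907-140529926 went from 54.7 to 81.0 in liver, 54.8 to 86.5 in muscle, 68.2 to 91.3 in brown adipose, 65.4 to 85.2 in white adipose, 24.9 to 77.7 in spleen, 0 to 49.1 in heart, 71.6 to 84.1 in lung and 79.3 to 85.5 in kidney. Its mean shift was 27.69 ± 16.37 points, and the lowest fasting value, in heart, was below 6 of the 8 fed values. In muscle its summit tags went from 5.6 to 22.9 times the genome-wide background.

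In a Fkbp5 intron, chr17:28452980-28453498 went from 35.5 to 56.9 in liver, 28.4 to 58.5 in muscle, 35.1 to 41.6 in white adipose and 34.7 to 58.0 in kidney. In brown adipose, spleen, heart and lung it was unlisted in fed and at 42.9, 23.8, 20.4 and 18.6 in fasting. The shift was 23.38 ± 10.34 points, the most even of the 5 relative to its size.

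A pair of intronic Zbtb16 regions belonged to this group. The stronger, chr9:48723052-48724503, was in all 16 sets and went from a mean of 90.2 to 94.4 (4.19 ± 3.73 points), with the lowest values in spleen, 66.9 fed and 76.7 fasting, but by fold its shift was -0.39. The other, chr9:48745457-48746093, went from 29.2 to 56.0 (26.88 ± 23.43 points) and was fasting-only in liver, muscle, spleen, heart and kidney. Upstream of the annotated Dusp1 gene, chr17:26571416-26572570 went from 53.7 to 75.6 (21.91 ± 22.94 points). It was unlisted in fed heart and fed kidney, and was highest in brown adipose (95.5 fed, 96.6 fasting). This region lies at -9591 bp from the nearest annotated Dusp1 start, which is in the start region that overlaps the start of Ergic1.

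**Figure D4:**
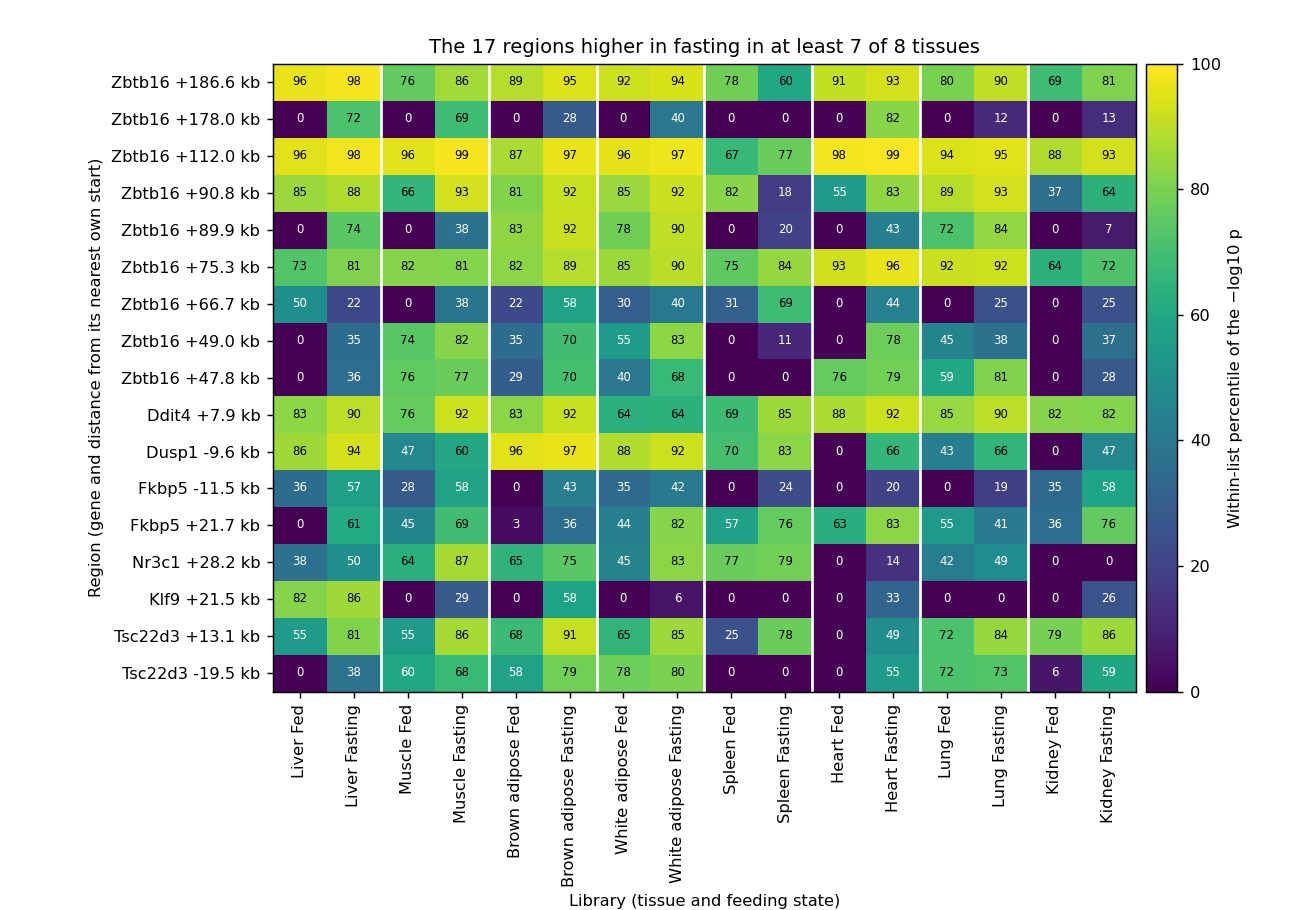
Within-list percentile (colour and number, 0 where no peak was listed) of the 17 intronic and distal regions that were higher in fasting in at least 7 of 8 tissues (rows, by gene and distance in kb from its nearest own start) in the 16 libraries (columns, fed beside fasting). Many fed columns are at 0 beside a listed fasting peak.

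Presence was compared next, a region being fasting-only in a tissue when it was in the fasting set and no fed peak was listed over it. Of 1832 region and tissue pairs in a set, 557 (30.4%) were fasting-only and 294 (16%) fed-only, against 25.6% and 27.3% of all pairs. There is 1 library on each side, so no test was made. Fasting-only pairs outnumbered fed-only pairs in 8 of 8 tissues for the genes' regions and in 4 of 8 over all regions. The gap was widest in kidney, 27.5% against 4.58%, where all regions gave 18.3% and 16.9%, and narrowest in lung, 22% against 20.3%. In spleen the fasting-only share, 33.6%, was below the 37.1% of all regions.

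By locus, Fkbp5 had 42.3% fasting-only and 10.1% fed-only pairs, and Zbtb16 34.4% and 11.3%. Ddit4 had 25.4% and 10.4%, Klf9 31% and 20%, Dusp1 25.9% and 15.6%, Tsc22d3 19.3% and 12.6%, and the metallothionein locus 14.8% and 5.56%. Nr3c1 was nearly even at 29.3% and 26.9%, and Sgk1 had more fed-only pairs, 21.9% and 28.9%. Without Zbtb16 and Fkbp5 the shares were 25.1% and 20.6%, against 25.6% and 27.3% of all pairs. The fasting-only share of the other loci was thus not above that of all pairs, while their fed-only share was below. Without muscle and both adipose tissues, whose depth differed between states, the shares for all the genes' regions were 30.3% and 17.1%, against 27.3% and 28.7% of all regions.

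**Figure D5:**
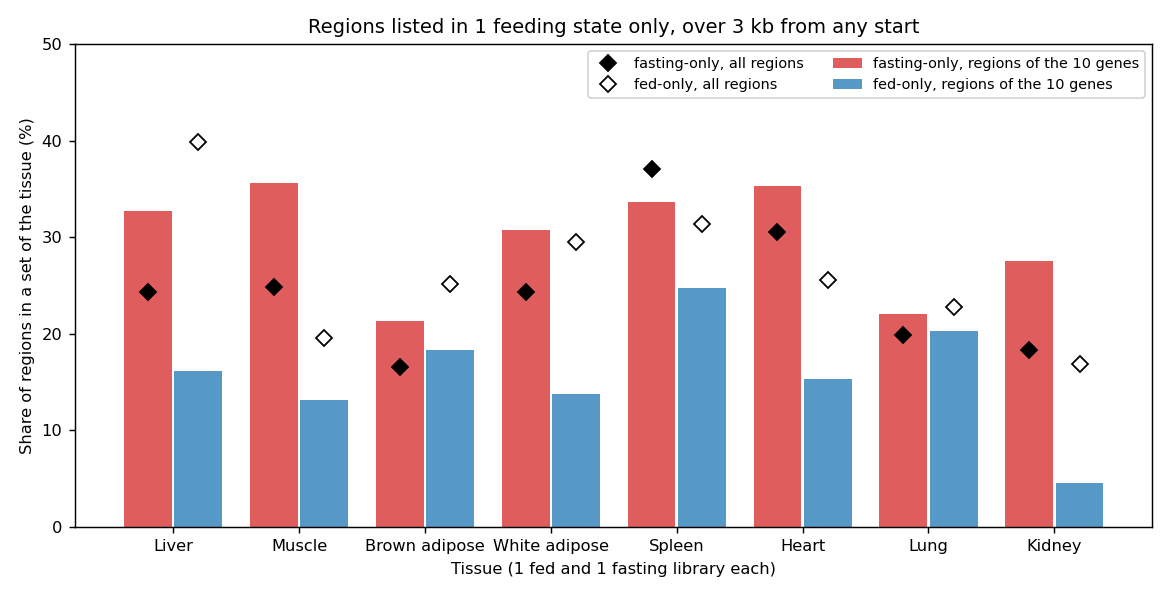
Share of region and tissue pairs (percent) that were fasting-only or fed-only in each tissue, for intronic and distal regions of the 10 genes (bars) and for all regions over 3 kb from any start (diamonds). The fasting-only bar exceeds the fed-only bar in every one of the 8 tissues, by the most in kidney.

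The most widespread fasting-only region was the Zbtb16 intronic interval chr9:48657856-48658039, printed above, which was in 6 fasting sets and listed in 0 of 8 fed libraries. Its fasting percentiles were 82.2 in heart, 71.8 in liver, 69.0 in muscle, 40.2 in white adipose, 13.1 in kidney and 11.8 in lung. In fasting brown adipose it was listed at 28.4 but not in the set, and in spleen it was unlisted. Its summit tags ran from 20 in kidney to 163 in muscle.

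Downstream of Ddit4, chr10:59947609-59948419 was fasting-only in 4 tissues and listed nowhere else. It stood at 85.6 in white adipose (166 tags), 79.8 in heart (80 tags), 75.0 in muscle (479 tags) and 68.8 in brown adipose (128 tags). Muscle and both adipose tissues are those whose depth differed between states, and marker levels moved in heart and in other tissues. The part of depth and of marker levels was not tested. In all, 10 of the 453 regions (2.21%) were fasting-only in at least 4 tissues and 1 was fed-only in as many, against 0.228% and 0.186% of all tested regions over 3 kb from any start. The others lay in Fkbp5 introns (chr17:28400927-28401485 in 5 tissues, chr17:28477645-28477969 in 4), in a Klf9 exon (chr19:23164674-23165188 in 5) and in Zbtb16 introns (chr9:48768838-48769424, chr9:48786828-48787352, chr9:48794545-48794755 and chr9:48807072-48807609, in 4 each), beside chr9:48745457-48746093 in 5. The interval chr9:48807072-48807609 was also fed-only in 2 tissues, spleen and lung. Fed-only in 4 tissues was chr19:23163691-23164001 in a Klf9 intron (liver, brown adipose, heart and lung), the 1 such region. The shares of all tested regions given here were not matched for how widely a region was listed.

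Both Zbtb16 regions that hold a response element had higher mean percentiles in fasting, short of the test's threshold. The first Zbtb16 window went from a mean of 39.5 to 66.3 (26.88 ± 33.58 points, up in 6 of 8 tissues), and the second from 32.5 to 58.3 (25.77 ± 30.25, up in 5 and down in 1). The sign-flip permutation test gave an exact p of 0.0625 for each and an adjusted p of 1. After adjustment, regions higher in all 8 tissues did not pass either. In the first, heart went from unlisted to 86.4 and brown adipose from 14.3 to 75.2. In the second, brown adipose went from unlisted to 73.6 and heart from unlisted to 66.7, while liver and spleen were unlisted in both states. The Dusp1 window had means of 19.8 and 20.1 and was strongest in spleen (84.4 fed, 83.8 fasting).

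Tissue differences among these regions were near the background. The pairing test called 17 of the 453 (3.75%) against 2.54% of all such regions, 8 of them in Zbtb16 and 3 around Dusp1, and it called none when any 1 tissue was left out. Downstream of Mt1, chr8:94186419-94187087 was in all 16 sets with an adjusted exact permutation p of 0.0388. It was highest in liver (98.9 fed, 96.4 fasting) and lowest in brown adipose (37.0 and 51.6). In a Zbtb16 intron, chr9:48824505-48825091 was highest in muscle (89.8 and 86.5) and heart (76.2 and 86.5) and unlisted in kidney, at an adjusted exact permutation p of 0.0388. An intronic Sgk1 region, chr10:21923126-21924058, was highest in heart (87.5 and 92.6) and brown adipose (87.2 and 83.9) and unlisted in liver and kidney, again at 0.0388 in the exact permutation test.

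The strongest intronic or distal region of a gene was in all 16 sets for 8 of the 9 loci. In a Fkbp5 intron, chr17:28407176-28408171 had a mean of 95.0, highest in spleen (99.1 in both states), and a shift of -0.45 ± 2.43 points. Downstream of Tsc22d3, chrX:140519832-140521021 had a mean of 93.0 and a shift of 0.57 ± 2.36. For Ddit4, Mt2, Sgk1, Nr3c1 and Dusp1 the strongest region had means of 86.3, 84.3, 76.7, 75.8 and 71.0. Their shifts were 5.19 ± 7.54, -0.86 ± 6.52, 1.95 ± 8.77, 4.99 ± 6.94 and -3.00 ± 17.35 points, and for Zbtb16 the strongest region was chr9:48723052-48724503, given above. Klf9 was weakest at 54.3, in 14 sets, with 10.51 ± 9.54 points more in fasting and its highest values in liver (90.2 and 89.7).

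The length of gene body covered by set peaks was larger in fasting in at least 7 of 8 tissues for 1 of the 10 genes, Fkbp5, and smaller in as many for 0, where 1.05% and 3.51% of 19257 genes were. For Fkbp5, peaks covered a mean of 7.7% of the gene in fed and 9.7% in fasting tissue, from 5.6% to 8.9% in liver, from 8.7% to 14.4% in muscle and from 4.6% to 6.9% in heart. White adipose went from 12.5% to 10.8%. In brown adipose, where 7.39% of all genes had more covered length in fasting and 77.7% had less, Fkbp5 went from 7.3% to 9.0%, and it was the 1 gene of the 10 with more covered length there. Zbtb16 went from 7.8% to 9.4%, up in 5 tissues and down in 3.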

How the data were processed

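The authors aligned ATAC-seq reads to GRCm38 with Bowtie2 and called peaks with MACS2, 1 pooled library per tissue and state (versions not given in the sources used here). Their lists hold a fold enrichment, deposited as a ratio of summit tags plus 1 to expected tags plus 1, with a −log10 p and a −log10 q, both deposited unscaled between libraries. Lists kept only their strongest rows, so in 8 libraries every row had q under 0.01.

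Whole summit tags and the expected (local background) tags were recovered from these columns, within 0.01 tags for 100% of rows. Starts came from GENCODE vM21. Peaks of all sets were merged into 759860 regions, and those in at least 2 sets were tested. The 10 genes, the lists and the tests were chosen with earlier results of these data known. Local background, summit tags, body cover and the separation of regions at other genes' starts were added after values were seen. Named regions were those of highest mean percentile or smallest pairing p per gene, moving the same way in all 8 tissues, state-only in at least 4, or holding a response element. Regions beside them, and the further start regions of Fkbp5 and Dusp1, were named after their values were seen. Marker lists checked the tissue labels. Python 3.11.15, numpy 2.4.6, pandas 2.3.3, numba 0.67.0, pysam 0.24.0, R 4.3.3 and limma 3.58.1 were used, and tests were checked on simulated data.

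No library has a replicate, so p-values measure the spread between tissues. Alternatives were ranking by fold, thinning to equal depth, other promoter windows, q under 1e-06, limma and leaving out each tissue.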

Additional observations from a re-analysis of the deposited data

How the results depend on the processing

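Ranking by fold in place of −log10 p left 1 gene of the 10, Fkbp5, lower in at least 7 tissues, called 5872 genes for tissue differences, and turned the shifts of Fkbp5 (-2.81), Tsc22d3 (-0.82), Zbtb16 (-1.23) and Dusp1 (0.16), with 4 pairs higher and 5 lower. It left 6 intronic or distal regions higher in at least 7 tissues and 2 lower (0.479% and 0.42% of all), with 0 called for tissue, of the genes or of all. Thinning to equal depth called 3 of the 10 and 5581 of all genes for tissue, turned Fkbp5 (-0.54) and Sgk1 (0.39), gave 4 pairs higher and 4 lower, and left 5 regions higher (0.151% of all), 0 called for tissue, of the genes or of all, and 293 fasting-only pairs (28.6%, against 22.3% of all pairs). With a promoter window of 1000 bp, or a peak over the start, Tsc22d3 stood at -0.01. With pairs at 20 points, 0 were lower.

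Centred summit tags in place of the percentile gave 2 genes higher and turned Sgk1 (0.06), Ddit4 (0.24) and Mt1 (0.19). Uncentred, summit tags gave 0 genes higher. At the strongest peak of each library Dusp1 stood at 0.08 and Fkbp5 at 0.90 for local background, which was higher for 7 of the 10. Local background was not recomputed under the ranking, thinning and window alternatives.

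Region shifts that turned under fold ranking were Zbtb16 chr9:48723052-48724503 (-0.39), chr9:48824505-48825091 (-5.56) and chr9:48807072-48807609 (-7.85), Sgk1 chr10:22010222-22010452 (-0.43), Fkbp5 chr17:28476992-28477322 (-5.41), Tsc22d3 chrX:140519832-140521021 (-2.10) and chrX:140521706-140522643 (-4.53), and the Dusp1 response element region (-3.94). Thinning turned chr9:48824505-48825091 (-0.50), chr9:48807072-48807609 (-4.30), Sgk1 chr10:22010222-22010452 (-2.48) and chr10:21923126-21924058 (-0.74), Tsc22d3 chrX:140521706-140522643 (-1.22), and Fkbp5 chr17:28400927-28401485 (-1.21) and chr17:28477645-28477969 (-2.94). Sets at q under 1e-06 called 45 of the genes' regions and 40276 of all for tissue, with 118 fasting-only pairs (11.8%, against 6.32% of all) and 79 fed-only (7.9%, against 14.6%). Counting the 41 tested regions at other genes' starts added 2 higher regions, 1 lower region and 6 called for tissue. Without Zbtb16 and Fkbp5, 6 of 239 regions were higher (0.55% of all), 8 were called for tissue and 241 pairs were fasting-only (25.1%, against 25.6% of all pairs). Without muscle and both adipose tissues, 314 pairs were fasting-only and 178 fed-only. The causes were not tested.

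Leaving out each tissue in turn gave 0 to 2 genes higher by percentile, 1 to 5 genes and 5675 to 7475 of all genes called for tissue, 7 to 8 genes higher by local background, 2 to 4 by summit tags (4 without spleen or without heart), 17 to 27 regions higher (27 without liver, spleen or kidney), 0 to 2 lower, and 0 to 0 regions called for tissue, of the genes or of all. With 7 tissues the pairing test has fewer pairings, so its smallest p is larger. A gene or region counted as higher or lower here when it was so in at least all but 1 of the remaining tissues. That rule is looser than 7 of 8, and the shares of all genes and regions past it were not taken. A larger count without a tissue is thus not a gain. Shifts that changed sign ranged from -0.11 to 0.02 for Sgk1, -0.28 to 0.27 for Dusp1 and -1.6 to 0.56 for Mt1 by percentile and from -0.06 to 0.04 for Dusp1 and -0.08 to 0.00 for Nr3c1 by local background. For regions they ranged from -2.41 to 0.68 (Mt2 chr8:94167154-94167637), -2.33 to 3.08 (Mt1 chr8:94186419-94187087), -0.19 to 3.34 (Sgk1 chr10:22010222-22010452), -0.93 to 7.84 (chr10:21923126-21924058), -5.22 to 2.93 (Dusp1 chr17:26576395-26577308), -7.61 to 5.23 (Dusp1 response element), -0.77 to 0.32 (Fkbp5 chr17:28407176-28408171) and -0.05 to 2.2 (Tsc22d3 chrX:140521706-140522643). Fed and fasting libraries were paired by tissue throughout, and the labels give no replicate numbers for a further block.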
